A study of Homo sapiens with 24 samples.

Results

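The 33 genes that encode the subunits of the human Mediator complex were examined in the chromatin accessibility lists of 2 diffuse large B-cell lymphoma (DLBCL) lines, OCI-LY3 and VAL, treated with the CDK9 inhibitor AZD4573. A listed region was assigned to a Mediator gene when it lay within 5 kb of one of the gene's transcription start sites (TSS) or overlapped the gene body, and was called a promoter region when it lay within 1 kb of a TSS. By this rule 47 of the 26369 distinct listed regions (0.178%) belonged to 24 of the 33 genes, which are themselves 33 of 20163 annotated protein-coding genes. The other 9 genes (MED7, MED10, MED19, MED21, MED14, MED23, CDK8, CCNC and MED12) had no listed region.

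Mediator is a large multi-subunit coactivator that bridges transcription factors bound at enhancers and the RNA polymerase II machinery at promoters. Its head and middle modules contact the polymerase, its tail module receives most activators, MED14 runs through the core as a scaffold, and a separable kinase module containing CDK8 or CDK19 with cyclin C, MED12 and MED13 binds reversibly and blocks polymerase engagement. CDK9 is the kinase of P-TEFb, which releases paused polymerase into elongation, and MED26 is a docking site for elongation factors that carry P-TEFb.

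Accessibility was profiled by ATAC-seq, in which a transposase cuts and tags open DNA, in 24 libraries, 4 for each line at 0, 3 and 8 h of 30 nM AZD4573. By the labels, 2 of each 4 libraries used a standard protocol on 50000 cells and 2 used Fast-ATAC on 5000 cells, while the protocol text gives 50000 cells for Fast-ATAC. Each treated time was compared with the 0 h libraries of its own line, which the lists call DMSO, so both comparisons of a line rest on the same controls, while the lines have separate ones. The 8 lists analysed here give the coordinates of the regions that the authors called increased or decreased by at least 1.5-fold, with no value per library. The depth of the libraries, the size of each change and its spread between replicates are therefore unknown here, no test could be run, and the protocols cannot be told apart. The methods speak of biological replicates for the experiments in general, and the labels do not say which of the 4 libraries of a group came from separate cultures. Below, "increased" and "decreased" mean that a region stood in the corresponding list, and a region that was in neither list is not thereby shown to be unchanged.

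With the TSS of transcripts tagged basic, as used throughout, promoters of Mediator genes were listed as increased and none as decreased; with the TSS of all annotated transcripts, 1 gene, MED13L, had a decreased promoter region in OCI-LY3 at 8 h. An increased promoter region was listed at 20 of the 33 genes in at least 1 of the 4 comparisons (60.6%), where 27.9% of all protein-coding genes had one. The shares of all genes, here and below, include genes that these cells may not express and were not matched to Mediator genes for expression or for having a peak. In VAL, 13 of the 33 genes (39.4%) had an increased promoter region at 3 h and 18 (54.5%) at 8 h, against 10.3% and 25.1% of all protein-coding genes. In OCI-LY3 the numbers were 5 (15.2%) at 3 h and 7 (21.2%) at 8 h, against 5.92% and 9.3%. A decreased promoter region was found at 0 of the 33 genes in each comparison. Among all protein-coding genes such regions were also infrequent, at 0.322% (3 h) and 3.38% (8 h) in VAL and at 0.694% (3 h) and 1.28% (8 h) in OCI-LY3, so a count of 0 among 33 genes is close to the background. All 20 promoter regions spanned a TSS of their gene, and none was found between there and 4530 bp from a TSS.

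**Figure D1:**
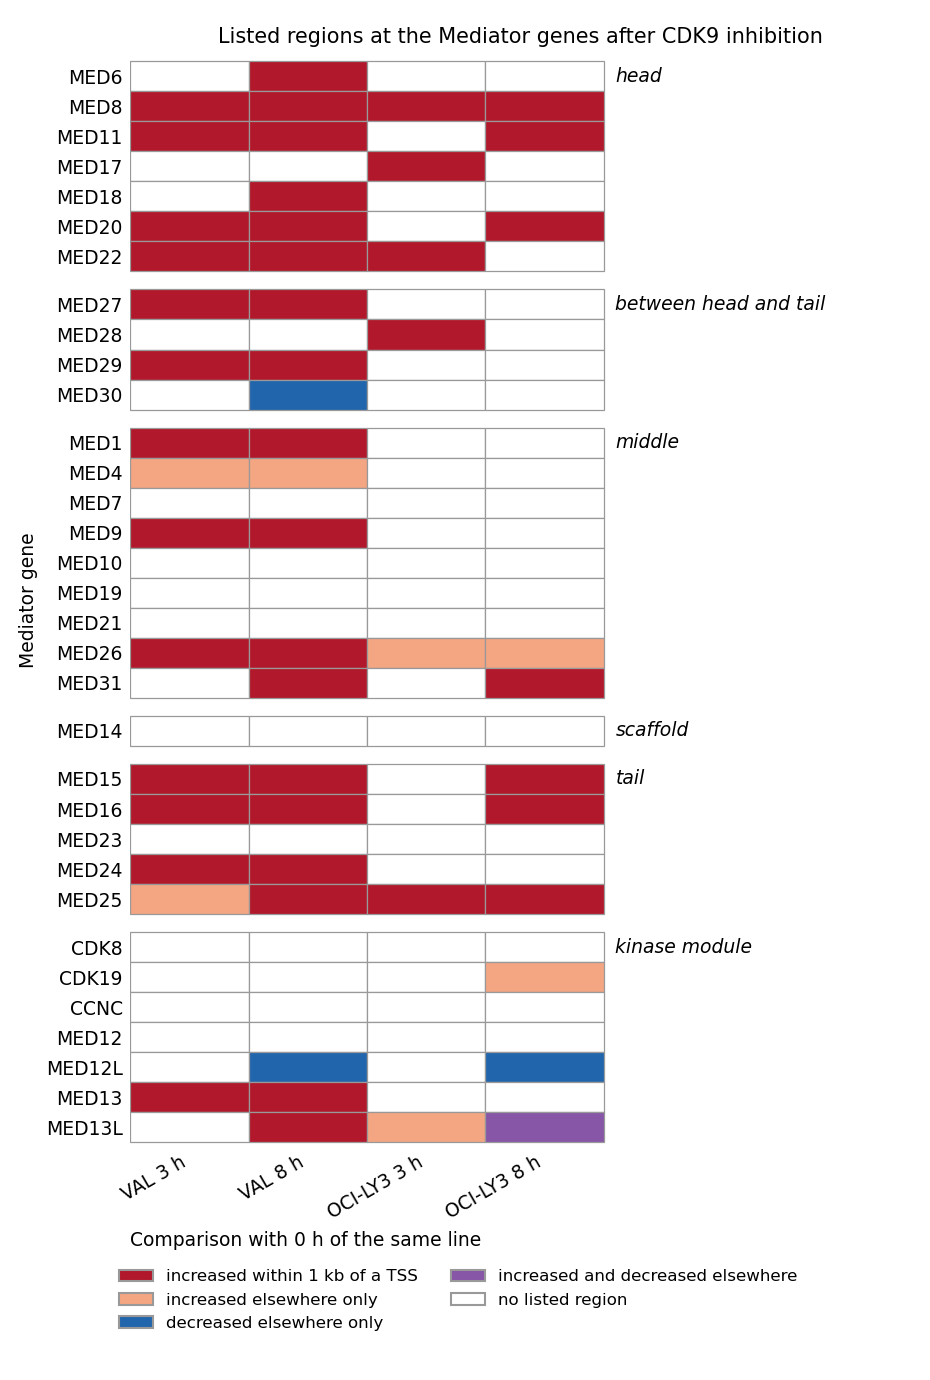
Each row is a Mediator gene, grouped by module, and each column a comparison with 0 h of the same line; the colour gives the direction and place of the listed regions. The 7 head genes all carry a dark red square, meaning an increased promoter region, while 9 genes are blank throughout and decreased regions are found at MED30, MED12L and MED13L.

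All 7 genes of the head module had an increased promoter region in at least 1 comparison, and 6 of them had one in VAL at 8 h, against 27.9% and 25.1% of all protein-coding genes. MED8, which joins the MED18-MED20 pair to the rest of the head, was listed in all 4 comparisons and was the 1 member promoter for which this held. The partners MED11 and MED22, which form a heterodimer at the base of the head, were each listed in 3 comparisons and shared both VAL times; in OCI-LY3, MED11 was listed at 8 h and MED22 at 3 h. MED20, of the movable jaw, was listed at both times in VAL and at 8 h in OCI-LY3, and its partner MED18 in VAL at 8 h. MED6, which lies at the junction of head and middle, was listed in VAL at 8 h. MED17, the central subunit of the head, was listed in OCI-LY3 at 3 h and in no VAL comparison. Whether the head differs from the other modules was not tested.

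The stretches directly upstream of the TSS of 6 head genes are given, as far as they are free of annotated exons, from GRCh37 (hg19) and read 5′ to 3′ on the coding strand of the gene. MED8, the head gene listed in all 4 comparisons, is not among these 6 genes. All stretches shown lie inside the called region. Capitals mark matches, on either strand, to GGGCGG (SP-type GC box), CCAAT (NF-Y box), CCGGAAG (ETS), TGACGTCA (CRE) or GCATGCGC (NRF1 core).
MED11, chr17:4634473-4634722, plus strand: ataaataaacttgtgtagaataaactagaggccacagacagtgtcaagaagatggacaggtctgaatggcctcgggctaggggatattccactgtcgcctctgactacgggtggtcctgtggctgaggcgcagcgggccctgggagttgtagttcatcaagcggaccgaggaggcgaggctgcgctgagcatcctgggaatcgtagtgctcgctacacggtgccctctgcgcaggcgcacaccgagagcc
MED20, chr6:41888878-41889127, minus strand: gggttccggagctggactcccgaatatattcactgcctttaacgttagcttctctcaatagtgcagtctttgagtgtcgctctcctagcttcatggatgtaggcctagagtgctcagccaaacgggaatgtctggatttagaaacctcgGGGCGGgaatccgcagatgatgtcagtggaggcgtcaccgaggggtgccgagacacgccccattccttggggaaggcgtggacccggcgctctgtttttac
MED22, chr9:136214987-136215072, minus strand: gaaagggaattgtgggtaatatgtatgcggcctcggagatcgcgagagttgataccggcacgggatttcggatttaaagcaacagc
MED6, chr14:71067408-71067622, minus strand: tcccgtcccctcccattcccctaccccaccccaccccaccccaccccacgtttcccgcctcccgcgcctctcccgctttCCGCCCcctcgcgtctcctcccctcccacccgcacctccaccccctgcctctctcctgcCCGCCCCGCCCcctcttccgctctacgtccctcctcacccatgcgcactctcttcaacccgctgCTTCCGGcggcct
MED17, chr11:93517198-93517392, plus strand: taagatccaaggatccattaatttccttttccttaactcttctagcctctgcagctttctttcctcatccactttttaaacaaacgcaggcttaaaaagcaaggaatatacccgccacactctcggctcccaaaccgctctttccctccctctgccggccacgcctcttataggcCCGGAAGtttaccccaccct
MED18, chr1:28655301-28655512, plus strand: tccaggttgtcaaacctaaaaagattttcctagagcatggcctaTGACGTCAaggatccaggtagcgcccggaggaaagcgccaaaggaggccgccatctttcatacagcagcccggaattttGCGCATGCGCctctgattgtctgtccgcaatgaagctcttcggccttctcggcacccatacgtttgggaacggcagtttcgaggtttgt

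Each of these promoters lay in an increased region that began upstream of the TSS and reached at least into intron 1, with widths from 1127 bp at MED11 to 3026 bp at MED18. The MED18 region was the widest of the 20 promoter regions, and its midpoint was 770 bp upstream of the canonical TSS. The MED18 stretch holds a full CRE and an NRF1 core read on both strands, and was the 1 Mediator promoter with a CRE match. The MED11 and MED22 stretches hold no match to the 5 motifs, which says no more than that these letters are missing from them.

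Among the subunits placed between head and tail, MED27 and MED29 had an increased promoter region at both times in VAL, and MED28 in OCI-LY3 at 3 h. MED30 had none. In the middle module, 4 of 9 genes had an increased promoter region in at least 1 comparison, where 27.9% of all protein-coding genes had one: MED1, the subunit that binds nuclear receptors, MED9 and MED26 at both times in VAL, and MED31 in VAL and OCI-LY3 at 8 h. The genes of the MED7-MED21 hinge, together with MED10 and MED19, had no listed region of any kind, and neither had the scaffold gene MED14. The tail module had 4 of 5, against the same 27.9% of all protein-coding genes. MED15, which binds SREBP-type activators, and MED16 were each listed at both times in VAL and at 8 h in OCI-LY3, MED24 was listed at both times in VAL, and MED25, known as the target of the VP16 activation domain, was listed in VAL at 8 h and at both times in OCI-LY3. MED23 was the tail gene without a region. In the kinase module 2 of 7 genes had one, a share close to the 27.9% of all protein-coding genes: MED13 at both times in VAL and MED13L in VAL at 8 h. The kinase genes CDK8 and CDK19, the cyclin C gene CCNC, MED12 and its paralog MED12L had no listed promoter region.

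The lines, which have separate control libraries, listed partly different promoters. Of the 20 genes, 8 were listed in both lines (MED8, MED11, MED20, MED22, MED31, MED15, MED16 and MED25), 10 in VAL alone (MED6, MED18, MED27, MED29, MED1, MED9, MED26, MED24, MED13 and MED13L) and 2 in OCI-LY3 alone (MED17 and MED28). These are 40%, 50% and 10% of the 20, and the same split of the 5629 protein-coding genes with such a region was 29.7%, 61.4% and 8.86%. At 8 h all 7 promoters listed in OCI-LY3 were listed in VAL (100%), against 80% of the 1876 protein-coding genes listed in OCI-LY3. Read the other way, 7 of the 18 VAL promoters were listed in OCI-LY3 (38.9%), against 29.6% of 5061. At 3 h, 2 of the 5 OCI-LY3 promoters, MED8 and MED22, were listed in VAL (40%, against 56% of 1193), which is 2 of the 13 VAL promoters (15.4%, against 32.1% of 2078). The VAL lists were longer at 8 h, with 11121 increased regions against 4367 in OCI-LY3. A difference between the lines was not tested for any gene.

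A large part of the promoter count lay on the 3 chromosomes with the highest shares of increased regions at 8 h among those holding a member. Chromosomes 1, 9, 11 and 14 also had more increased than decreased regions in both lines, at 55.3 to 69.8%. They are counted below with the remaining chromosomes. At 8 h, 98.7% of the listed regions of chromosome 17, 99.4% of chromosome 19 and 99.6% of chromosome 22 were increased in VAL, and 94%, 98.7% and 89.7% in OCI-LY3. These chromosomes hold 11 of the 33 genes, namely MED11, MED1, MED9, MED31, MED24 and MED13 on chromosome 17, MED29, MED26, MED16 and MED25 on chromosome 19 and MED15 on chromosome 22. In VAL, 9 of the 11 had an increased promoter region at 3 h (81.8%) and 11 at 8 h (100%), against 27.9% and 53.8% of all protein-coding genes of the same chromosomes. In OCI-LY3 it was 1 of 11 at 3 h (9.09%, against 9.46%) and 5 of 11 at 8 h (45.5%, against 19.6%). Thus the OCI-LY3 share at 3 h was close to that of all genes there, and the other 3 shares were above it.

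On the remaining chromosomes the Mediator shares were lower in 3 comparisons and higher in the OCI-LY3 comparison at 3 h. In VAL, 4 of 22 genes had an increased promoter region at 3 h (18.2%, against 7.09%) and 7 of 22 at 8 h (31.8%, against 19.9%). In OCI-LY3 it was 4 of 22 at 3 h (18.2%, against 5.27%) and 2 of 22 at 8 h (9.09%, against 7.42%). The OCI-LY3 share at 8 h therefore lay close to the background there, with MED8 and MED20 as its members. The promoter regions of both MED8 and MED20 have their midpoint nearer to another gene's TSS, as described below. Of the head genes, MED11 is the 1 that lies on chromosome 17, 19 or 22, so the head count rests mainly on the other chromosomes. By contrast, every middle or tail gene with an increased promoter region lies on chromosome 17, 19 or 22. The middle and tail genes without one all lie elsewhere, so module and chromosome cannot be told apart in the middle and tail counts. The part of the chromosomal pattern in the Mediator counts was not tested.

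**Figure D2:**
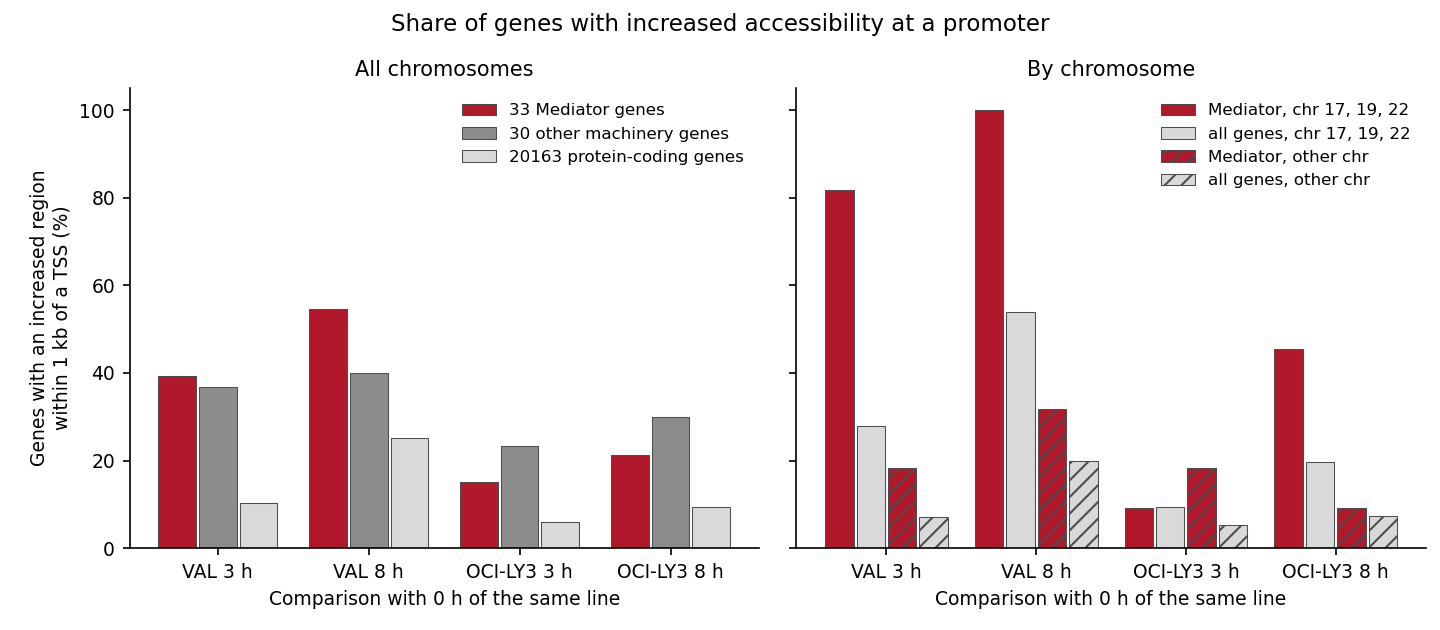
Bars give the percentage of genes with an increased region within 1 kb of a TSS in each comparison, on the left for the 33 Mediator genes, 30 other genes of the transcription machinery and all protein-coding genes, and on the right for Mediator genes and all genes split by chromosome. On chromosomes 17, 19 and 22 the Mediator bar reaches 100% in VAL at 8 h, where all genes reach 53.8%, and elsewhere it stays at or below 31.8%.

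Other genes of the transcription machinery were also listed as increased. Among 30 such genes, 12 RNA polymerase II subunit genes and 18 general transcription factor genes, an increased promoter region was found in VAL at 11 (36.7%, 3 h) and 12 (40%, 8 h), in OCI-LY3 at 7 (23.3%, 3 h) and 9 (30%, 8 h), and a decreased one at 0 in each comparison. The polymerase subunit genes were at 58.3% in VAL at both times, above the Mediator share, and the general transcription factor genes were below it, at 22.2% (3 h) and 27.8% (8 h). In OCI-LY3 the polymerase subunit genes were at 33.3% (3 h) and 41.7% (8 h), again above Mediator, and the general transcription factor genes at 16.7% and 22.2%, close to it. The shares of all protein-coding genes were 10.3% and 25.1% in VAL and 5.92% and 9.3% in OCI-LY3, so the general transcription factor share in VAL at 8 h was near the background. POLR2E and POLR2G, which encode polymerase subunits, and ERCC2 and GTF2H3, which encode subunits of TFIIH, were listed in all 4 comparisons as MED8 was.

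Several Mediator promoters are shared with a neighbour. Of the 20 promoter regions, 6 lay within 1 kb of a TSS of another protein-coding gene, among them BYSL at MED20, RPL7A at MED22, PAF1 at MED29 and C17orf100 at MED31. PAF1 encodes a subunit of an elongation complex, RPL7A a ribosomal protein and BYSL a ribosome assembly factor. Accessibility at such a region cannot be assigned to either gene. The region midpoint was nearer to the neighbour's TSS at MED20, where the BYSL TSS was 104 bp away, at MED29, where the PAF1 TSS was 77 bp away, and at MED8. Without regions nearer to another gene's TSS, MED8, MED20 and MED29 left the count. MED8 and MED20 are head genes, so the head counts given above are lower under this rule. In VAL, 10 Mediator genes (30.3%) then had an increased promoter region at 3 h and 15 (45.5%) at 8 h, against 8.49% and 21.6% of all protein-coding genes under the same rule. The OCI-LY3 numbers were 4 (12.1%) and 5 (15.2%), against 4.73% and 7.56%.

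Away from promoters, increased regions were found within 5 kb of a TSS at 2 genes and in the bodies of 8. No matching share of all protein-coding genes is given for these places alone, so the 2 counts are not read against a background. By the whole rule, promoters included, in VAL 15 Mediator genes (45.5%) had an increased region at 3 h and 19 (57.6%) at 8 h, and in OCI-LY3 the numbers were 7 (21.2%) and 10 (30.3%). The shares of all protein-coding genes were 15.2%, 34.6%, 9.34% and 17.1% in the same order. Counting both directions, 72.7% of Mediator genes and 53.3% of all protein-coding genes had a listed region. The median gene length was 25.6 kb for Mediator genes and 27.2 kb for all protein-coding genes. By number of regions, 20 of the 40 increased regions lay at promoters, 3 between 4530 and 4871 bp from a TSS and 17 in gene bodies. The nearest region beyond the 5 kb limit, in exon 4 of MED29 in VAL at 8 h, was 5847 bp from a TSS and is counted as gene body.

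MED26 had the most regions. Beside the promoter region (chr19:16738156-16740334, both VAL times), 5 increased regions lay in its first intron, 9.62 to 43.6 kb downstream of the canonical TSS. The region at chr19:16710496-16711338, 28.1 kb into the gene, was listed in all 4 comparisons. The region at 9.62 kb was listed in VAL at 8 h and at both times in OCI-LY3, that at 34.4 kb at both times in VAL and at 8 h in OCI-LY3, that at 22.9 kb at 8 h in both lines and that at 43.6 kb in VAL at 8 h. In OCI-LY3, therefore, MED26 was listed in its intron at both times and not at its promoter. At 34.4 and 43.6 kb, and also for the region shared by all comparisons, the nearest protein-coding TSS was that of SLC35E1 (27691 bp from the midpoint of the shared region). The central 200 bases of that shared region, the 1 non-promoter region of a Mediator gene in all 4 comparisons, are shown because of that recurrence; they hold no match to the 5 motifs.
MED26 intron 1, chr19:16710818-16711017, plus strand: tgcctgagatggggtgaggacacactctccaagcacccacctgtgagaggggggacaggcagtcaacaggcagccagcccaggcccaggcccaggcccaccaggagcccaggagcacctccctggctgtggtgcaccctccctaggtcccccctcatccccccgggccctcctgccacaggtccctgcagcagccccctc

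**Figure D3:**
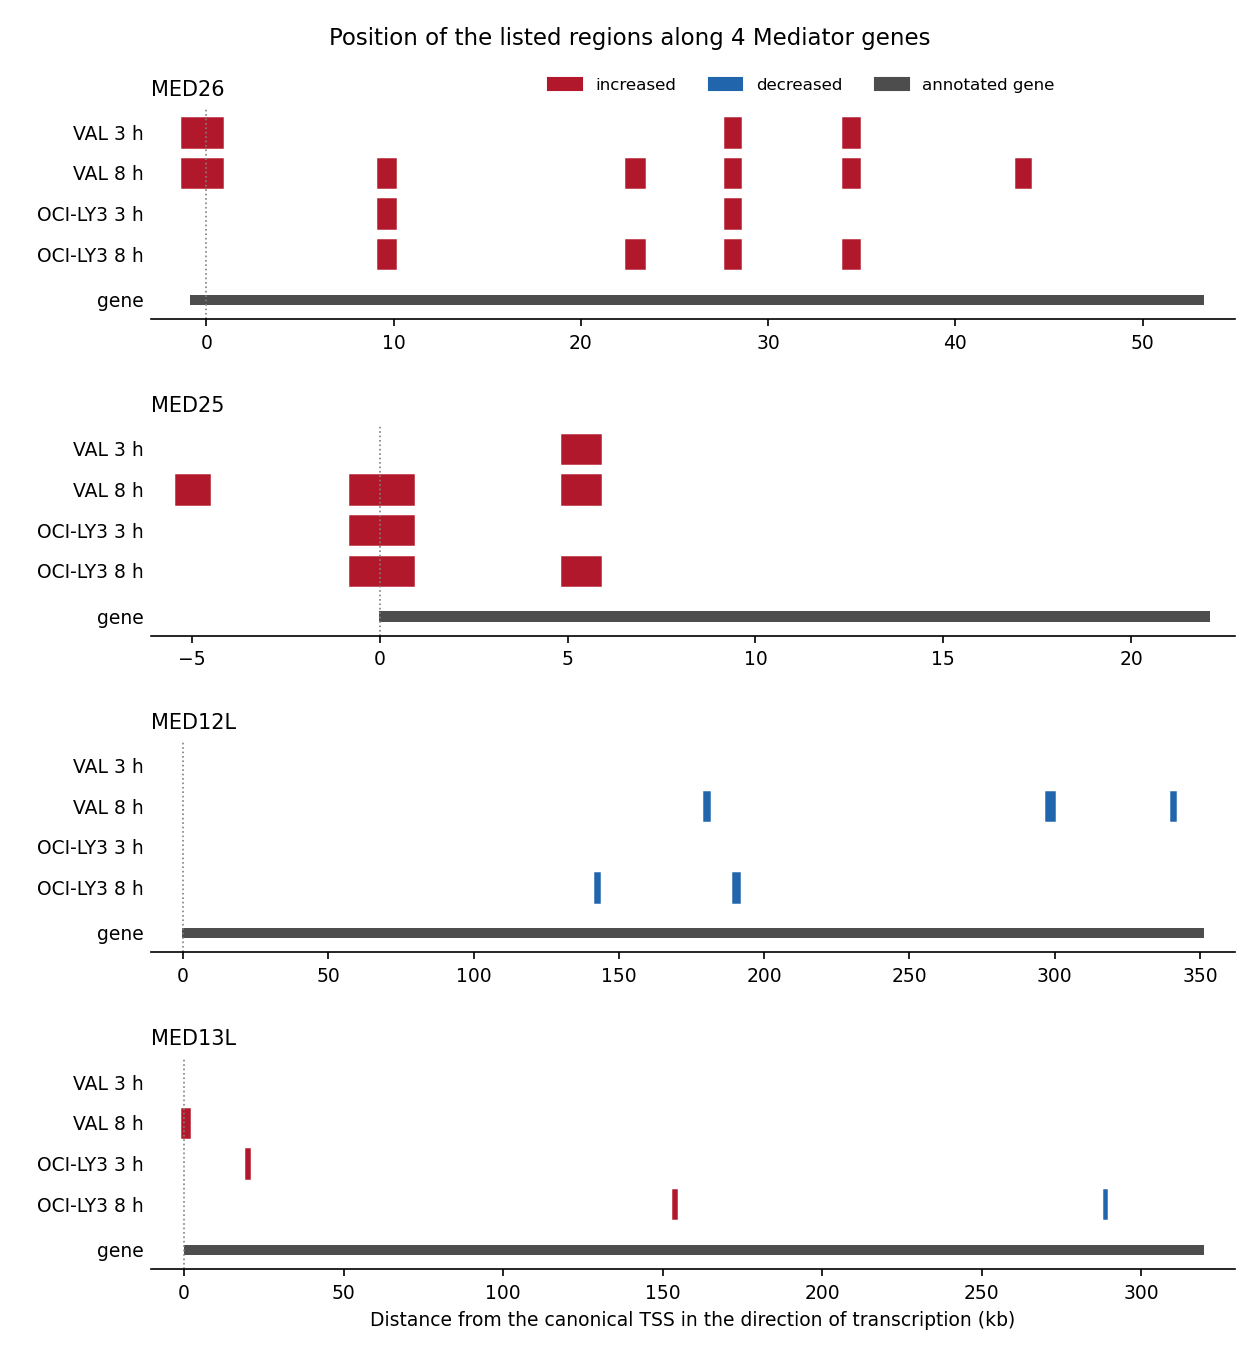
Listed regions of MED26, MED25, MED12L and MED13L are drawn by distance from the canonical TSS in kb, along the direction of transcription, with 1 row per comparison; red is increased, blue decreased, and the grey bar the annotated gene. Of the 5 intronic regions of MED26, 4 recur across lines and that at 43.6 kb is listed in VAL alone, whereas each of the 5 decreased regions of MED12L appears in 1 row.

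Several other genes had increased regions outside their promoters. MED25 had a region in intron 3, 5.36 kb downstream of the canonical TSS (chr19:50326397-50327423), that was listed at both times in VAL and at 8 h in OCI-LY3, and a region upstream, with its midpoint at -4.97 kb, in VAL at 8 h that covered a TSS of FUZ. In VAL at 3 h, MED25 was thus listed through its intron and not through its promoter. MED15 had 3 further regions in VAL at 8 h, of which 2 lay in and around intron 2 and exon 3 at 42.3 and 44.1 kb and 1 at the TSS of KLHL22. MED16 had a region over exon 11 and MED24 a region over exons 16 and 17, both at both times in VAL. MED22 had a region in intron 4 in VAL at 8 h.

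MED4, a middle subunit, had 3 increased regions at both VAL times and none at its promoter. They lay 22.7, 28.3 and 30.1 kb downstream of the canonical TSS, on chromosome 13, where 26.8% of the regions listed in VAL at 8 h were increased. All 3 were past the end of the canonical transcript, inside the gene as annotated from its longest transcript, and 1 lay nearer to the TSS of SUCLA2. CDK19, the paralog of CDK8, had 1 increased region in intron 2, 133 kb from its TSS, in OCI-LY3 at 8 h.

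Decreased regions were confined to the bodies of 3 genes, among which 2 encode paralogs of kinase module subunits. At 3 h decreased regions were found at 0 members in either line, and at 8 h at 2 members (6.06%) in each. For all protein-coding genes the shares at 3 h were 4.24% in VAL and 4.66% in OCI-LY3, and at 8 h they were 13.1% and 7.41%. With counts this small, the lower member shares, that in VAL at 8 h included, are not read as a difference from the background. MED12L, the longest member at 352 kb, had 5, all at 8 h; 3 were listed for VAL and 2 for OCI-LY3, and no region was common to both lines. The VAL regions lay in intron 16 (180 kb from the canonical TSS), over exons 33 to 36 (298 kb) and in intron 43 (341 kb), and the OCI-LY3 regions lay in intron 16 at 142 and 190 kb.

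Other genes, among them P2RY12 and P2RY14, lie within the span of MED12L, and their TSS were closer to the regions. The region over exons 33 to 36 (chr3:151100482-151103056) had its midpoint 772 bp from a TSS of P2RY12, and the OCI-LY3 region at 190 kb was 2510 bp from a TSS of P2RY14. P2RY12 and P2RY14 encode purinergic receptors. The nearest protein-coding TSS was that of P2RY14 for the other 2 intron 16 regions and that of IGSF10, past the end of MED12L, for the intron 43 region, so none of the 5 was nearest to a TSS of MED12L. The central 200 bases of the VAL region in intron 16 are shown as an example of a decreased region, with a CCAAT match on the minus strand in capitals.
MED12L intron 16, chr3:150983615-150983814, plus strand: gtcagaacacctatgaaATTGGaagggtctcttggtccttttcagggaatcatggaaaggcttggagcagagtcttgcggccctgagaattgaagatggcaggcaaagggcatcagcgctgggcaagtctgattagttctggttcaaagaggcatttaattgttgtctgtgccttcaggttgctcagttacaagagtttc

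MED13L was listed in both directions. Its promoter region was increased in VAL at 8 h. For OCI-LY3 the lists held an increased region in intron 1 at 3 h (19.9 kb), an increased region in intron 2 at 8 h (154 kb) and a decreased region in intron 17 at 8 h (289 kb). Each of its 4 regions stood in 1 list. MED13L is 320 kb long, and its shorter paralog MED13, 123 kb long, had its promoter region as the 1 listed region.

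MED30 had a decreased region in intron 3 in VAL at 8 h, 13.3 kb from its TSS, and no other listed region.

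Decreased regions of Mediator genes had a lower median GC content than increased ones. All 7 decreased regions lay in gene bodies, and 5 of them lay in MED12L. Values for all listed regions of the series are not given here. GC content was 47.9 to 67.3% (median 55.8%) in the 20 promoter regions, 34.9 to 68.9% (median 51.4%) in the 17 increased body regions and 35.1 to 44.2% (median 40.5%) in the 7 decreased ones. The decreased range was wholly below the promoter range and overlapped that of the increased body regions. Widths were 990 to 3026 bp (median 1537 bp) at promoters, 402 to 1747 bp (median 929 bp) in increased body regions and 769 to 2575 bp (median 1680 bp) in decreased regions. Regions of 1 gene share their surroundings and are not independent, and these ranges are descriptions.

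**Figure D4:**
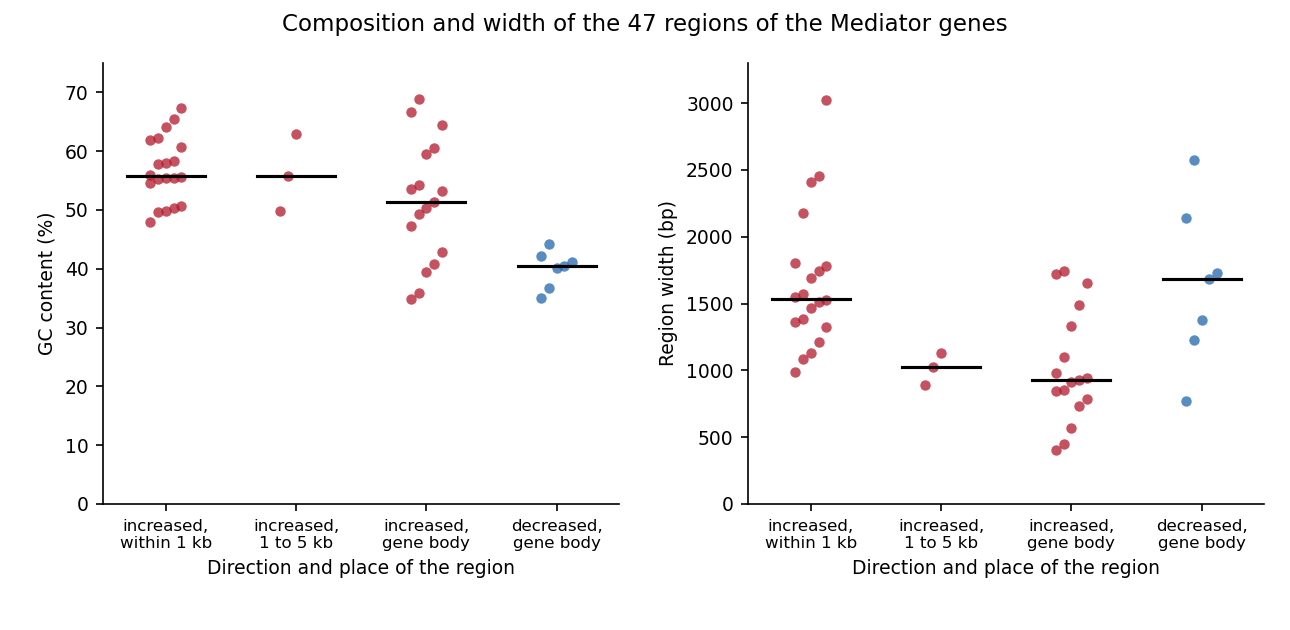
Each point is 1 of the 47 regions, with its GC content in percent on the left and its width in bp on the right, split by direction and place; the black line is the median. The 7 decreased regions sit between 35.1 and 44.2% GC, below all 20 promoter regions.

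Listed Mediator promoters had a lower median GC content than the others. In the 300 bp around the canonical TSS (250 bp before to 50 bp from it), the 20 promoters with an increased region had a median GC content of 57.5% (49.3 to 81%) and the 13 without one a median of 63.3% (47 to 75.3%). Among all protein-coding genes the order was the other way, with 67.3% for promoters with an increased region and 61.7% for those without. The highest values among listed members were at MED13 (81%), MED13L (78.3%) and MED26 (77.3%), and the lowest at MED28 (49.3%).

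In the same 300 bp, the ETS letters CCGGAAG, searched on both strands, were found at 10 Mediator promoters (30.3%) and at 14% of all promoters. The 10 were MED6, MED8, MED11, MED17, MED18, MED28, MED29, MED31 and MED15, all with an increased promoter region, and MED7, which had none. Thus 9 of the 20 listed promoters (45%) and 1 of the 13 others (7.69%) held the match. Among all protein-coding genes the match was likewise more frequent at listed promoters (23.6%) than at the others (10.3%). The GC box GGGCGG was found at 22 Mediator promoters (66.7%, against 60.9% of all promoters), of which 13 were listed and 9 not. It was at 65% of listed and 69.2% of other Mediator promoters. Among all protein-coding genes the order was the other way, with 76.4% and 54.9%. CCAAT was found at 11 (33.3%, against 35.9%), of which 6 were listed and 5 not. These are 30% of listed and 38.5% of other Mediator promoters, against 36% and 35.9% among all protein-coding genes. The NRF1 core GCATGCGC occurred at MED18 and CDK19 (6.06%, against 4.26%) and the CRE TGACGTCA at MED18 (3.03%, against 2.69%). A match gives the letters in the window and no binding was measured.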

How the data were processed

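ATAC-seq libraries of OCI-LY3 and VAL cells (24 in all) were processed by the authors, who mapped them to hg19 (Bowtie2), discarded mitochondrial, non-unique and duplicate reads, found peaks sample by sample (MACS2), pooled these into 1 set with counts per peak (bedtools) and tested each time against 0 h (DESeq2). The deposited files are 8 lists of region coordinates without any count, fold change or p-value (0 columns of per-sample values). The adjusted p threshold is stated differently in the methods and in the legend, and for the ATAC-seq data tool versions and a Tn5 offset are not given in the sources used here.

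Coordinates were converted to 1-based and compared, with at least 1 bp of overlap, with GENCODE v44 lifted to GRCh37 and the GRCh37 sequence, in Python 3.11.15. TSS were those of transcripts tagged basic. The Ensembl canonical transcript set exon numbers and distances. Sharing meant equal coordinates. RefSeq promoter sequences were not used, being on another build. The overlap step was tested on simulated data. Figures were drawn with matplotlib 3.10.9.

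The 33 members, the modules, the 30 other machinery genes and the motifs were chosen with earlier results of these data known. Some planned items are not reported here. All members are named, by region. Alternatives covered promoter windows, TSS sets, region midpoints and neighbouring genes. No test was run, because no replicate values were at hand.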

Additional observations from a re-analysis of the deposited data

How the results depend on the processing

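Counts of Mediator genes and regions, 26 results in all, were recomputed, 24 of them under 6 settings each and the 2 counts of promoters shared between lines under 1. Of 146 alternative values, 140 stayed within 1.5 times the reported count and 6 did not. With the TSS of all transcripts in place of basic ones, 1 gene, MED13L, had a decreased promoter region in OCI-LY3 at 8 h in place of 0. Without regions nearest to another gene's TSS, increased regions in VAL at 3 h numbered 13 in place of 21, decreased regions 1 in place of 4 in VAL at 8 h and 1 in place of 3 in OCI-LY3 at 8 h, and genes with a decreased region 1 in place of 2 in both of these. By construction this setting removes every region whose midpoint lies nearer to another gene's TSS, such as the promoter regions of MED8 (in all 4 comparisons), MED20 and MED29, body regions of MED26 and all 5 regions of MED12L.

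No paired analysis was possible because the lists carry coordinates only, and for the same reason leaving out libraries was not run. Depth is unknown, so for a gene without a listed region no change, a change below the threshold and a place outside the merged peaks cannot be told apart. The shares of all genes include genes whether or not these cells express them.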
